A study of Caenorhabditis elegans with 16 samples.

Results

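The nuclear-coded subunits of the respiratory chain were followed in whole Caenorhabditis elegans of the wild-type N2 Bristol strain, at 2 ages and in 2 feeding states. The set holds 37 genes, chosen by name from the 21882 genes of the count table: 8 subunits of complex I, 4 of complex II, 7 of complex III, both cytochromes c, 7 subunits of complex IV and 9 of complex V. All 37 were matched to gene symbols of the WBcel235 annotation, and all 37 passed the filter on low counts. The rule that names them uses no measured value, but the members were chosen with earlier results of these data known. The polyA RNA was sequenced in 16 libraries, 4 in each of 4 groups: adults of the young or the day 8 age, either fed ad libitum or without food for 6 h. Culture was on NGM plates at 20 °C throughout, and the submitters' stated aim was to find genes that respond to fasting in the young but not in the old. The labels do not say whether the 4 libraries of a group came from separate cultures, so the p-values measure only the spread between these libraries. All young libraries carry well codes of one plate column and all day 8 libraries of the next, so an effect of the plate column and one of age cannot be told apart. At both ages the fed libraries carry codes of plate rows A to D and the fasted ones of rows E to H. An effect of the plate rows and one of fasting cannot be told apart either.

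The respiratory chain sits in the inner mitochondrial membrane. Complex I takes electrons from NADH and complex II from succinate, ubiquinone carries them to complex III, and cytochrome c, a small soluble protein, carries them on to complex IV, which passes them to oxygen. Complexes I, III and IV pump protons, and complex V, the ATP synthase, uses the return flow of protons to make ATP. Most subunits are coded in the nucleus, while a core of complexes I, III, IV and V is coded in mitochondrial DNA. In C. elegans several nuclear-coded subunits exist as paralogous pairs, among them the b subunit of the ATP synthase, of which asb-1 is known as the germline form.

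Library totals ran from 58400000 to 117700000 counts (rounded), and outside cyc-2.2 no member had fewer than 1832 counts in any library. The 37 genes together held 1.21 to 1.29% of all counts in young fed, 1.18 to 1.24% in young fasted, 0.862 to 0.900% in day 8 fed and 0.788 to 0.851% in day 8 fasted libraries. The day 8 libraries fell into sets: libraries 1 and 2 stood apart from libraries 3 and 4 in both feeding states, along a component that held 5.07% of the variance over all genes. The sets also lay apart along the component with 9.4% of the variance, which set young fed from young fasted libraries. The calls were therefore also made without one or the other of these sets.

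Levels are given as CPM, counts per 1000000 of the scaled library total. Per kilobase of exon, complex V held the 2 most abundant transcripts. In young fed animals atp-2, the catalytic beta subunit of the ATP synthase, reached 1712 ± 22.8 CPM per kb (SD, n = 4), and atp-1, the alpha subunit, 1519 ± 21.3 CPM per kb. The cytochrome c gene cyc-2.1 followed at 905.3 ± 13.9 CPM per kb. The lowest levels were those of cyc-2.2, the second cytochrome c gene, with 48.5 ± 2.58 CPM per kb, ucr-2.2, one of 3 genes for core protein 2 of complex III, with 75.8 ± 1.14 CPM per kb, and sdha-1, the flavoprotein of complex II, with 79.1 ± 0.656 CPM per kb. At day 8 in fed animals the top of the order was the same, with 722.7 CPM per kb for atp-2, 665.5 for atp-1 and 501.5 for cyc-2.1, but cyc-2.2 stood at 0.380 CPM per kb.

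**Figure D1:**
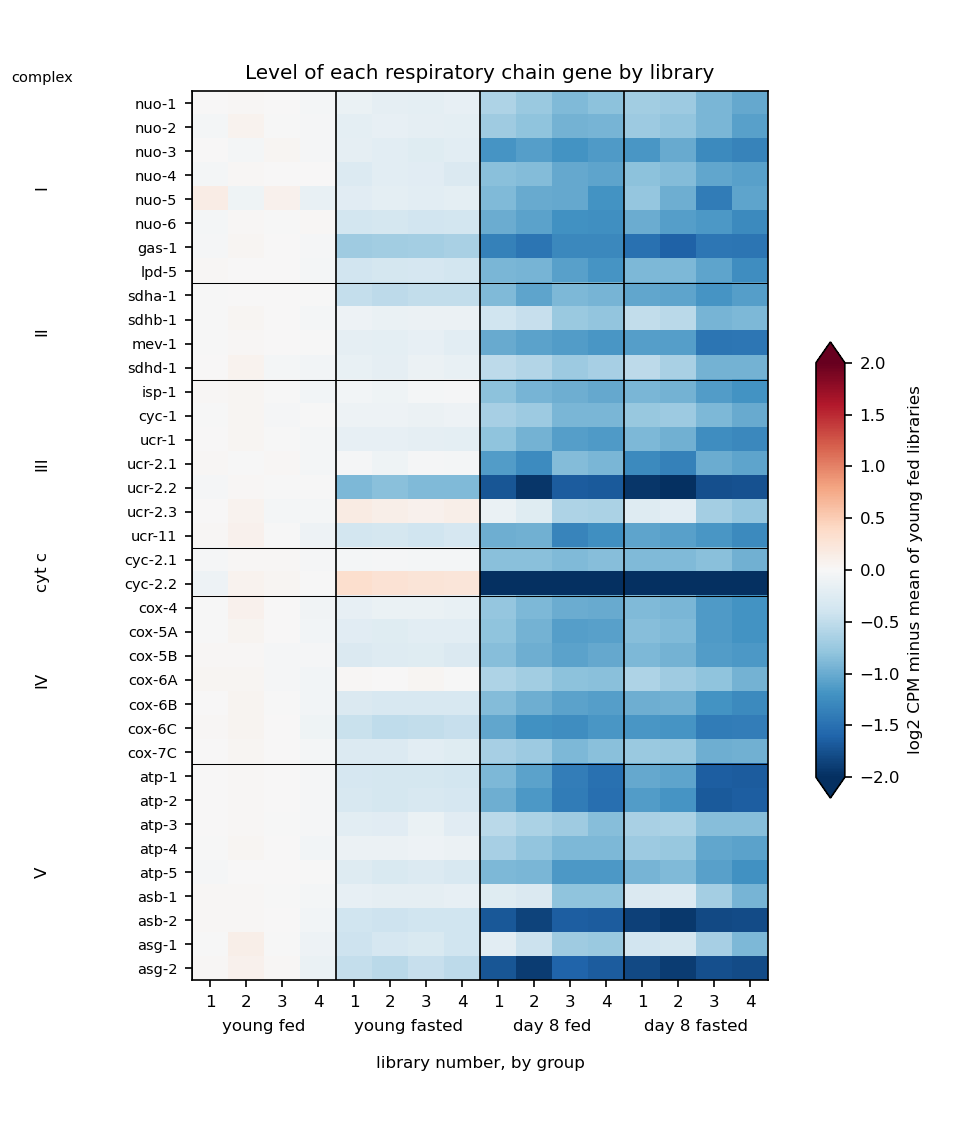
Level of each of the 37 genes (rows, by complex) in each of the 16 libraries (columns, by group), as log2 CPM minus the mean of the 4 young fed libraries, with colours saturated beyond 2 in either direction. Nearly the whole map is blue at day 8, where cyc-2.2 runs off the scale, and the day 8 columns 3 and 4 are a deeper blue than 1 and 2 for most autosomal genes.

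The first question was how the chain differed between ages. In fed animals all 37 genes were lower at day 8 than in young adults, by edgeR's quasi-likelihood test with Benjamini-Hochberg adjustment over the 17844 genes tested, where 34.7% of all genes were called lower and 30.8% higher. The groups did not overlap for any of the 37, against 34.2% of all genes that lay wholly lower. The median log2 fold change of the 37 was -0.98, against -0.01 over all genes, and its quartiles were -1.12 and -0.80. Scaling by library totals alone moves the median of all genes from -0.01 to 0.51. On that scale 32 of the 37 were lower and none was called higher, against 23.1% and 52.7% of all genes. The point estimates of ucr-2.3 (0.12) and asg-1 (0.01) turned positive there. Relative to the median of all genes the 37 lay 0.97 lower under both scalings. All 37 calls were made without day 8 libraries 1 and 2 and also without day 8 libraries 3 and 4. In these fits 38% and 38.8% of all genes were lower. In a whole animal, fewer cells of a type and less RNA per cell cannot be told apart.

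The fasted animals gave 36 of 37 genes lower at day 8, where 36.9% of all genes were lower and 31.2% higher. The median was -0.78, against -0.05 over all genes. The exception was asg-1, at -0.20 ± 0.12 (SE; edgeR adjusted p = 0.171), whose groups overlapped. A further gene, asb-1, was called narrowly (-0.35 ± 0.14, edgeR adjusted p = 0.0454) and lost its call in 10 of the 26 alternative fits (edgeR or DESeq2 adjusted p from 0.0717 to 0.663). Among these were the fits without any 1 of the 4 young fasted libraries and without day 8 fasted library 3 or 4. Without day 8 libraries 1 and 2 asg-1 was called as well (-0.33, edgeR adjusted p = 0.000122). That made 37 of 37 lower, against 38.3% of all genes. Without day 8 libraries 3 and 4 asg-1 was at -0.02 (edgeR adjusted p = 0.806). In that fit 36 were lower, against 42.5% of all genes.

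By complex, the fed age difference had a median log2 fold change of -1.02 in complex I, -0.78 in complex II, -0.99 in complex III, -0.97 in complex IV and -1.02 in complex V. The summed level of complex V was 8572 to 8884 CPM in young fed and 3380 to 4716 CPM in day 8 fed libraries, and that of complex I was 1814 to 1912 and 893.6 to 1019 CPM. Apart from cytochrome c, the widest ranges lay in the complexes with paralogues among the members, from -1.74 to -0.39 in complex III and from -1.71 to -0.50 in complex V.

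**Figure D2:**
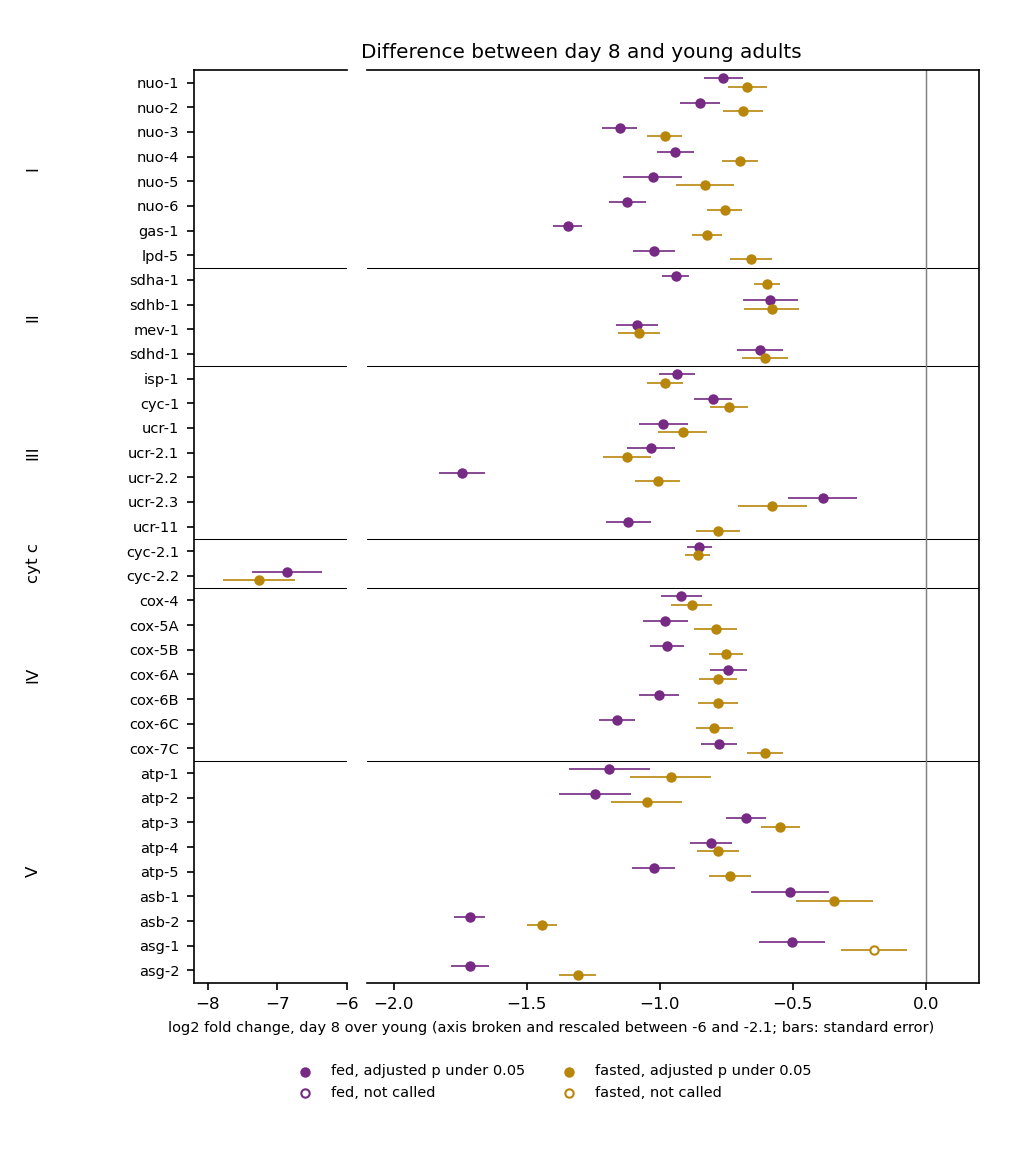
Log2 fold change of day 8 over young adults for each gene, in fed (purple) and fasted (gold) animals, with standard errors; filled points have an adjusted p under 0.05 and the horizontal axis is broken. Every fed point lies below 0, cyc-2.2 lies near -7 and asg-1 is the one open point.

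The second question was what 6 h without food did. In young adults 18 of the 37 genes (48.6%) fell on fasting and none rose, where 21.1% of all genes were called lower and 21.2% higher (edgeR, adjusted over all genes). The median log2 fold change was -0.21, against 0.03 over all genes. The fasted libraries lay wholly below the fed ones for 32 members, against 31.6% of all genes, and wholly above for ucr-2.3 and cyc-2.2, against 31.8%, while isp-1, cox-6A and ucr-2.1 overlapped. The calls were spread over the complexes, with 5 of 8 in complex I, 1 of 4 in complex II, 2 of 7 in complex III, neither cytochrome c, 5 of 7 in complex IV and 5 of 9 in complex V. With totals alone as the scale, which moves the median of all genes from 0.03 to 0.24, 14.5% of all genes were lower and 30.6% higher. On that scale 11 members were lower, 4 higher (isp-1, cyc-1, cox-6A and ucr-2.3), and asb-2, nuo-3, nuo-4, cox-5A, cox-5B, cox-7C and atp-3 lost their calls. Relative to the median of all genes, 35 of the 37 lay lower under both scalings.

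The test shares 1 estimate of spread over all 16 libraries, and the day 8 libraries vary more than the young ones. Fitted on the young libraries alone, 31 members were lower and ucr-2.3 and cyc-2.2 higher, where 36.3% of all genes were lower and 38.3% higher. Without day 8 libraries 3 and 4 the counts were again 31 and 2, against 32.4% and 34.7% of all genes. They were 31 lower and 1 higher without day 8 libraries 1 and 2, against 31.8% and 33.9%. The alpha and beta subunit genes were called in 12 and 17 of the 26 alternative fits. The gene atp-1 read 3085, 3131, 3096 and 3027 CPM in young fed and 2440, 2418, 2423 and 2380 CPM in young fasted libraries, groups that stand well apart. Its log2 fold change was -0.35 ± 0.15 (SE, edgeR adjusted p = 0.0713), so it was not called. Its values are shown beside those of atp-2 although the naming rule did not pick it. The gene atp-2 read 3318, 3343, 3307 and 3240 CPM in young fed and 2639, 2596, 2646 and 2618 CPM in young fasted libraries (log2 fold change -0.33 ± 0.13, edgeR adjusted p = 0.0544).

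At day 8 none of the 37 genes was called on fasting by edgeR, where 0.37% of all genes were called, and DESeq2 called none either. At an unadjusted p under 0.05, 4 members were lower and none higher. Over all 17844 genes tested 503 were lower and 424 higher, or 5.2% in either direction. Of the 37 estimates 35 lay below 0, against 9534 of the 17844, and 32 lay below the median of all genes. The log2 fold changes ran from -0.18 to 0.00, with a median of -0.08 against -0.01 over all genes, and the fed and fasted libraries overlapped for every member, where 2.28% of all genes did not overlap. Fed and fasted day 8 libraries of the same set deviated together, whether or not their numbers matched. With the library number as a block within each age 4 members were lower: gas-1 (-0.16), sdhb-1 (-0.12), ucr-2.1 (-0.13) and asb-2 (-0.13). In that fit 1.94% of all genes were lower and 0.936% higher. Without day 8 libraries 1 and 2, 17 members were lower, led by mev-1 at -0.32 (edgeR adjusted p = 0.000141), where 6.73% of all genes were lower, and without libraries 3 and 4 none was called. The count of 0 at day 8 depended on which libraries entered, and a missed threshold does not show that the genes did not respond.

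**Figure D3:**
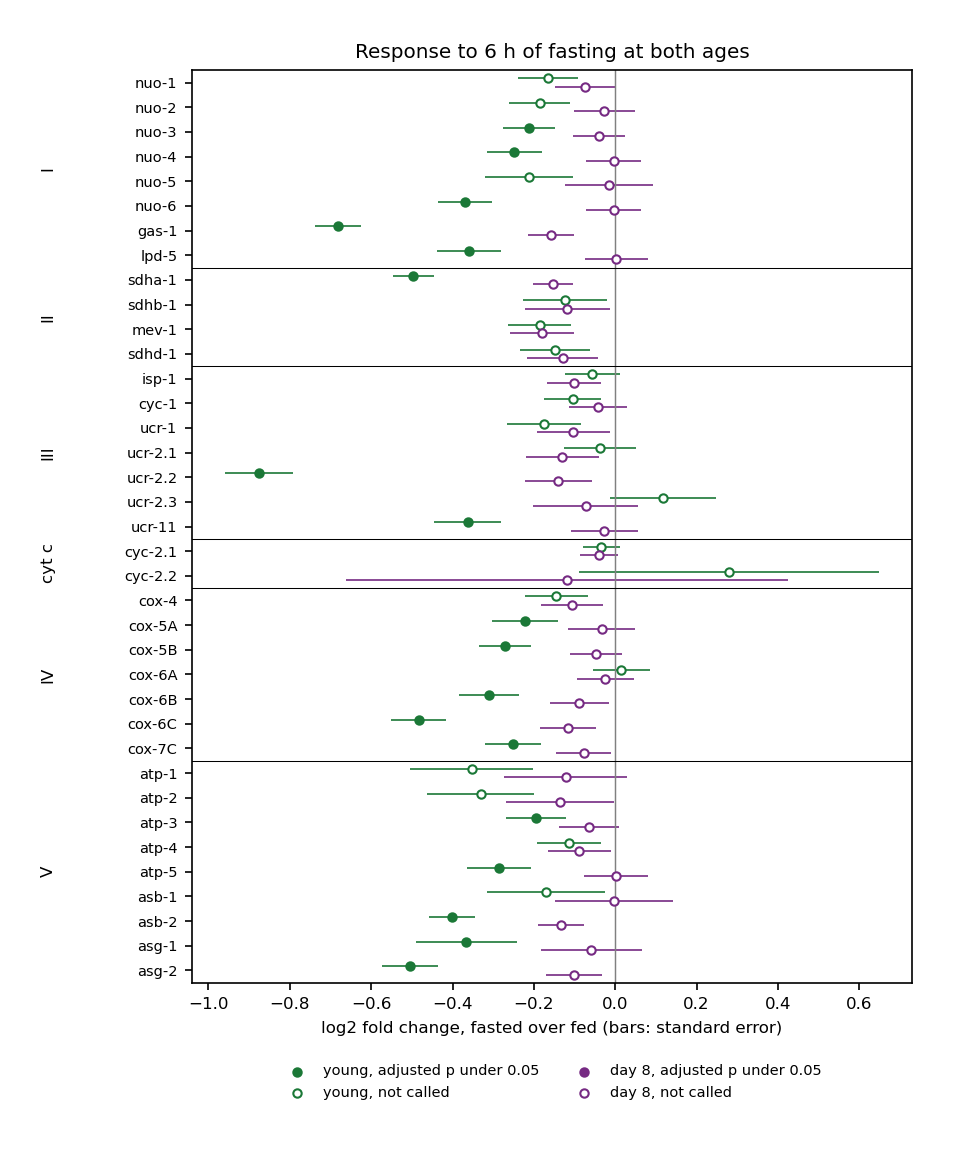
Log2 fold change of fasted over fed for each gene in young (green) and day 8 (purple) animals, with standard errors; filled points have an adjusted p under 0.05. The green points reach -0.88 at ucr-2.2, while the day 8 points lie between -0.18 and 0.00 and none is filled.

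The difference between both responses was tested directly. For 9 of the 37 genes (24.3%) the young response was lower than the day 8 response, and for none higher, where 12.6% of all genes were called lower and 13.4% higher. These were ucr-2.2 (difference in log2 fold change -0.74 ± 0.12 SE), gas-1 (-0.52 ± 0.08), asg-2 (-0.40 ± 0.10), cox-6C (-0.37 ± 0.10), nuo-6 (-0.365 ± 0.095), lpd-5 (-0.36), sdha-1 (-0.34 ± 0.07), ucr-11 (-0.34 ± 0.12) and asb-2 (-0.27 ± 0.08). The call was lost with 1 library left out for ucr-11 (8 libraries: young fed 1 and 2, all 4 young fasted, day 8 fasted 1 and 2), asb-2 (day 8 fed 4, day 8 fasted 3 or 4) and lpd-5 (day 8 fasted 1 or 2). On library totals alone 3 of the 37 were lower and 8 higher, against 9.52% and 20.0% of all genes. With the replicate block within each age 22 of the 37 were lower, the 9 among them, and ucr-2.3 was higher, against 27.2% and 23.6% of all genes. Without day 8 libraries 3 and 4 the counts were also 22, with the 9 among them, and 1, against 24.5% and 20.6%. They were 17, again with the 9, and 3 (isp-1, mev-1 and ucr-2.3) without day 8 libraries 1 and 2, against 23.6% and 24.2%.

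In complex I, the entry point of NADH electrons, the largest changes were in gas-1, the core subunit that lies next to the ubiquinone site and whose mutants are known for sensitivity to anaesthetics; it lies on X, at bases 15586786 to 15590397 of WBcel235. It read 148.4, 155.6, 152.5 and 149.3 CPM in young fed and 92.97, 93.95, 94.36 and 96.28 CPM in young fasted libraries. At day 8 it read 59.1, 55.04, 62.24 and 61.79 CPM fed and 53.88, 49.13, 55.45 and 54.97 CPM fasted. The young groups are far apart and both lie above every day 8 library, while the day 8 groups overlap. In fasted young adults gas-1 fell by 37.7% (log2 fold change -0.68 ± 0.06 SE, edgeR adjusted p = 7.9e-08), and the fed age difference was 2.54-fold.

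The accessory subunit nuo-6 read 121, 126.6, 123.5 and 126.4 CPM in young fed and 96.31, 97.47, 95.15 and 96.1 CPM in young fasted libraries. At day 8 it read 62.53, 59.49, 53.46 and 53.12 CPM fed and 62.35, 57.99, 56.17 and 51.4 CPM fasted. The young fall was -0.37 ± 0.07 on the log2 scale (SE, edgeR adjusted p = 0.000354), and at day 8 both feeding states covered the same range. The accessory subunit nuo-3 read 244.6, 239.1, 252.4 and 241.6 CPM in young fed, 216.6, 210.7, 205.6 and 211.9 in young fasted, 107.7, 114.3, 106.8 and 111.3 in day 8 fed, and 109.6, 121.2, 100.6 and 96.44 CPM in day 8 fasted libraries. Its age difference in fed animals, -1.15 ± 0.07 (SE), was the second in complex I after gas-1.

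The other 5 genes of complex I are nuo-1, the NADH-binding flavoprotein, nuo-2 and nuo-5, core subunits of the peripheral arm, and the accessory subunits nuo-4 and lpd-5. Their fed age differences ran from -0.76 for nuo-1 to -1.03 for nuo-5. On fasting in the young nuo-4 (-0.25) and lpd-5 (-0.36) were called lower, while nuo-1 (-0.16), nuo-2 (-0.19) and nuo-5 (-0.21) were not.

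Complex II links the chain to the tricarboxylic acid cycle. Its flavoprotein gene sdha-1 read 189.1, 191, 191.3 and 188 CPM in young fed, 136.6, 132.4, 134.9 and 134.8 in young fasted, 102.7, 91.81, 101.8 and 99.2 in day 8 fed, and 92.12, 90.95, 84.03 and 88.68 CPM in day 8 fasted libraries. It was the only complex II gene called on fasting in the young (-0.50 ± 0.05 SE, edgeR adjusted p = 8.91e-07). The membrane anchor gene mev-1, whose mutant is known for oxidative stress and a short life, read 133.6, 136.3, 134.8 and 134.4 CPM in young fed and 119, 117.6, 120.6 and 116.6 CPM in young fasted libraries. At day 8 mev-1 read 67.36, 64.08, 62.24 and 60.39 CPM fed and 62.97, 62.62, 49.11 and 49.65 CPM fasted, so that fasted libraries 3 and 4 lay well under the rest. Its fed age difference, -1.08 ± 0.08 (SE), was the deepest in complex II.

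The second anchor gene, sdhd-1, read 95.97, 99.82, 92.84 and 91.9 CPM in young fed, 85.73, 84.1, 87.52 and 86.19 in young fasted, 66.3, 63.01, 57.49 and 60.08 in day 8 fed, and 66.19, 60.96, 49.3 and 49.37 CPM in day 8 fasted libraries. Its fed age difference of -0.62 and that of the iron-sulfur subunit gene sdhb-1, -0.58, were both calls that did not hold on library totals alone.

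Complex III has 3 genes for core protein 2. The gene ucr-2.2 (X, 15173904 to 15178145) read 107.6, 111.4, 108.6 and 108.5 CPM in young fed and 58.49, 61.22, 58.94 and 59.01 CPM in young fasted libraries. At day 8 it read 33.24, 28.21, 34.55 and 34.17 CPM fed and 28.29, 25.01, 32.09 and 32.75 CPM fasted. On fasting in the young it fell by 45.5%, the largest fall of the 37 (-0.88 ± 0.08 SE, edgeR adjusted p = 4.89e-07), and the fed age difference was 3.35-fold.

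The gene ucr-2.1, also on X, read 173.6, 171.1, 174.9 and 166.3 CPM in young fed and 169.5, 161.8, 169.3 and 167.3 CPM in young fasted libraries, ranges that overlap. At day 8 ucr-2.1 read 78.85, 71.85, 93.93 and 90.76 CPM fed and 70.85, 66.97, 85.78 and 82.97 CPM fasted, with libraries 3 and 4 above 1 and 2 each time. The autosomal gene ucr-2.3 read 173.4, 179.8, 167.6 and 167 CPM in young fed and 192.2, 185.8, 182.5 and 185.6 CPM in young fasted libraries, so that its fasted libraries all lay higher. At day 8 ucr-2.3 read 157, 145.4, 112.5 and 110.6 CPM fed and 143.8, 148.8, 107.1 and 100.1 CPM fasted, with libraries 3 and 4 below 1 and 2. Its fasting estimate in the young, 0.12 ± 0.13 (SE), was not called by edgeR, and its fed age difference of -0.39 ± 0.13 was the smallest of the 37.

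The small subunit gene ucr-11 read 66.94, 69.99, 65.11 and 61 CPM in young fed, 50.96, 51.5, 49.83 and 52.26 in young fasted, 33.3, 33.59, 26.33 and 28.02 in day 8 fed, and 31.55, 30.97, 29.17 and 27.3 CPM in day 8 fasted libraries. It fell on fasting in the young (-0.36 ± 0.08 SE, edgeR adjusted p = 0.00231). The other complex III genes are isp-1, the Rieske iron-sulfur protein whose mutant is known for long life, cyc-1, cytochrome c1, and ucr-1, core protein 1. Their fed age differences were -0.94, -0.80 and -0.99, and none of them was called on fasting in the young, with estimates of -0.06, -0.10 and -0.17.

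The gene with the largest age difference was cyc-2.2 (chromosome V, 12611682 to 12612218). It read 19.74, 22.33, 21.83 and 20.99 CPM in young fed and 26.84, 25.89, 25.37 and 24.98 CPM in young fasted libraries. At day 8 it read 0.0239, 0.102, 0.436 and 0.104 CPM fed and 0.123, 0.109, 0.0996 and 0.31 CPM fasted, from only 2 to 65 counts a library. The fitted fed age difference was -6.86 ± 0.50 (SE, edgeR adjusted p = 7.94e-09), or 116-fold lower. The other cytochrome c gene, cyc-2.1, read 490.2, 503.9, 503.2 and 490.6 CPM in young fed, 484.4, 487.1, 485.7 and 484.5 in young fasted, 279, 277.5, 269.3 and 275.5 in day 8 fed, and 268.1, 270.9, 277.6 and 254.9 CPM in day 8 fasted libraries. Its fed age difference was -0.85 ± 0.05 (SE), and its fasting estimate in the young was -0.03 ± 0.05.

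The summed level of 6 sperm marker genes went in the same directions as cyc-2.2. Their summed level was 177.6 to 180.9 CPM in young fed, 289.7 to 294.3 in young fasted, 12.75 to 16.05 in day 8 fed and 12.86 to 15.87 CPM in day 8 fasted libraries, and all 6 were called lower at day 8 in fed animals with a median log2 fold change of -5.68. Over all genes 34.7% were called lower in that comparison. In fasted young adults 2 of the 6 rose and none fell, where 21.2% of all genes rose and 21.1% fell. The rise of cyc-2.2 there, 0.28 ± 0.37 (SE), was not called by edgeR in the fit of all 16 libraries. The part of sperm in the cyc-2.2 result was not tested.

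Complex IV hands the electrons to oxygen. The gene cox-6C read 150.8, 153.6, 148.5 and 138.9 CPM in young fed, 108.1, 103.8, 104.6 and 107 in young fasted, 72.16, 64.2, 62.45 and 65.79 in day 8 fed, and 65.94, 65.55, 55.96 and 56.71 CPM in day 8 fasted libraries. It had the largest change of the complex in both comparisons, with a fasting fall in the young of -0.48 ± 0.07 (SE, edgeR adjusted p = 3.09e-05) and a fed age difference of -1.16 ± 0.07. The gene cox-6B read 300.7, 309.4, 296.3 and 286.1 CPM in young fed, 244.2, 239.5, 239.3 and 238.7 in young fasted, 162.7, 151.1, 141.7 and 139.5 in day 8 fed, and 152.1, 153.9, 129.8 and 123.9 CPM in day 8 fasted libraries. Its fasting fall in the young was -0.31 ± 0.07 (SE, edgeR adjusted p = 0.00307).

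The gene cox-5A read 499.7, 517.4, 503.1 and 482.6 CPM in young fed, 427.1, 425.2, 434.6 and 430.6 in young fasted, 285.7, 261.3, 234.2 and 234.7 in day 8 fed, and 276.1, 270.1, 227.6 and 219.2 CPM in day 8 fasted libraries. Its young fasting call (-0.22 ± 0.08 SE, edgeR adjusted p = 0.0398) was lost in 6 of the alternative fits, 5 of them with 1 young library left out (fed 2 or any of the 4 fasted ones). Of the other 4 genes, cox-5B (-0.27) and cox-7C (-0.25) were also called lower on fasting in the young, while cox-4 (-0.14) and cox-6A (0.02) were not.

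In complex V the paralogous pairs diverged with age. The b subunit, part of the stalk that holds the catalytic head in place, is coded by asb-1 on chromosome III (4594543 to 4595821) and asb-2 on X (4469766 to 4471476). The gene asb-1 read 276.9, 274.6, 270.5 and 263.4 CPM in young fed, 243.4, 239.6, 238.3 and 243 in young fasted, 229.6, 221.5, 155 and 155.5 in day 8 fed, and 222.3, 224, 169.7 and 143.1 CPM in day 8 fasted libraries. The gene asb-2 read 457.8, 460.5, 456.9 and 436.2 CPM in young fed, 344.5, 338.3, 344.1 and 344.2 in young fasted, 139.3, 125.3, 145 and 142.6 in day 8 fed, and 124, 118.6, 130.1 and 131 CPM in day 8 fasted libraries. In fed animals asb-2 was 3.28-fold lower at day 8 and asb-1 1.43-fold lower.

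In fasted young adults asb-2 fell (-0.40 ± 0.06 SE, edgeR adjusted p = 2.93e-05), and asb-1 was at -0.17 ± 0.14, not called. The ratio of asb-1 to asb-2 per kilobase lay below 1 in every young and above 1 in every day 8 library. It was 0.681 to 0.696 in young fed and 0.797 to 0.815 in young fasted libraries, and 1.23 to 2.03 in day 8 fed and 1.26 to 2.17 in day 8 fasted libraries. On the log2 scale the fed age difference was 1.18 (exact two-sided permutation p = 0.0286 with n = 4 and 4, adjusted p = 0.0429 over 24 ratio tests; 0.0286 is the smallest p this design allows). The young fasting difference was 0.23, with the same exact permutation p of 0.0286. At day 8 the ratio was higher in libraries 1 and 2 than in 3 and 4.

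The g subunit, a small membrane subunit, is coded by another such pair. The gene asg-1 on chromosome I read 135.5, 146.7, 135.6 and 126.6 CPM in young fed, 102.3, 107.1, 109.7 and 103.1 in young fasted, 118, 100.9, 83.28 and 81.51 in day 8 fed, and 104.2, 106, 85.45 and 72.71 CPM in day 8 fasted libraries. The gene asg-2 on X read 104.9, 109.2, 105.5 and 94.11 CPM in young fed, 73.99, 71.18, 74.64 and 71.68 in young fasted, 31.65, 27.77, 34.08 and 32.59 in day 8 fed, and 29.46, 27.62, 30.54 and 29.98 CPM in day 8 fasted libraries. The ratio of asg-1 to asg-2 per kilobase was 1.34 to 1.4 in young fed and 2.55 to 3.89 in day 8 fed libraries. Fasted young adults also had less asg-2 (-0.51 ± 0.07 SE, edgeR adjusted p = 2.41e-05). The fasting call of asg-1 in the young (-0.37 ± 0.12 SE, edgeR adjusted p = 0.0268) was lost without young fed library 2 and without young fasted library 1, 2 or 4, with adjusted p from 0.052 to 0.0649.

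Over all 6 pairs and 4 comparisons, 16 of 24 ratio tests passed, all at an exact permutation p of 0.0286 and an adjusted p of 0.0429. No ratio was called on fasting at day 8. Among the core protein 2 genes, ucr-2.1 over ucr-2.2 went from between 1.54 and 1.62 in young fed to between 2.65 and 2.91 in young fasted libraries, a range that overlaps the 2.38 to 2.73 of day 8 fed libraries. The fasted age difference was not called for this pair or for ucr-2.2 over ucr-2.3. Whether reads were shared between paralogues in counting is not given in the sources used here, and the exon lengths are those of the annotation. Left with day 8 libraries 1 and 2 alone, the ratio tests that involve day 8 cannot pass. The smallest p is then 0.0667 for the tests of age and larger for those of fasting at day 8. The 6 tests of fasting in the young keep their p, and they lost their calls through the adjustment over the 24 tests (adjusted p = 0.0941). Paired by replicate number no ratio test can pass, with a smallest p of 0.125.

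**Figure D4:**
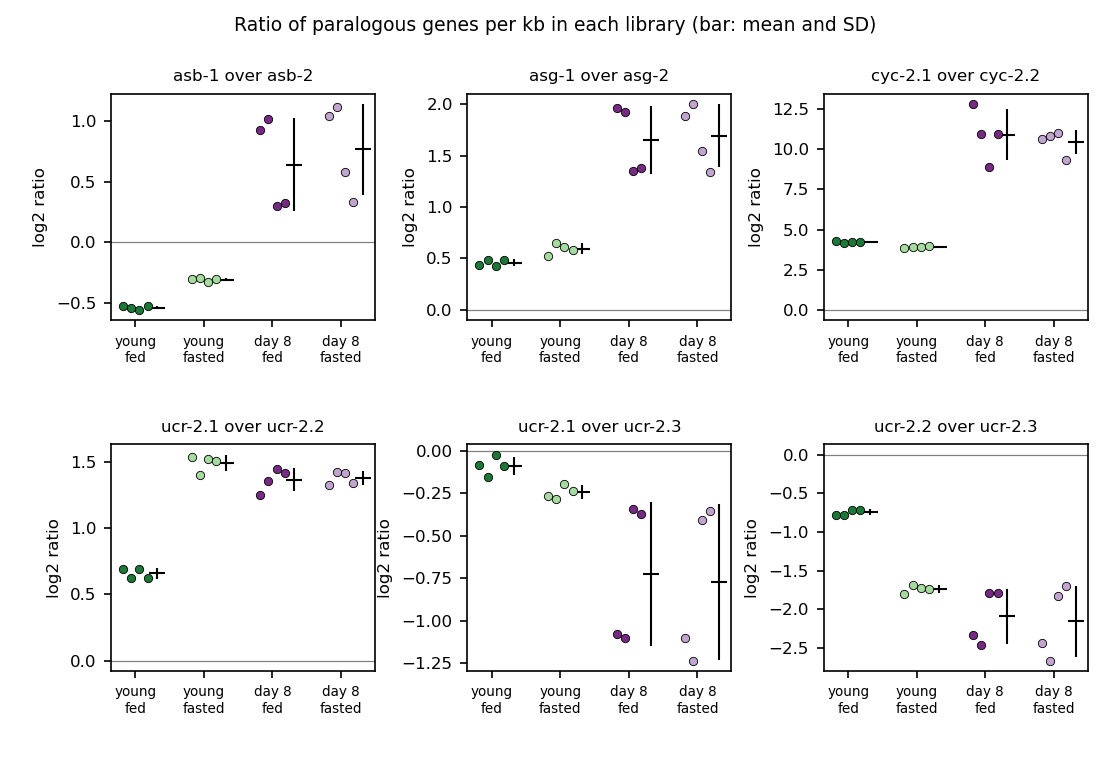
Log2 ratio of counts per kilobase between paralogous genes in each library (points) with group mean and SD (bars). The asb-1 over asb-2 ratio lies below 0 in all young and above 0 in all day 8 libraries, and the day 8 points of 4 of the panels split into 2 levels.

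The catalytic subunits kept step with each other. At day 8 atp-2 read 1678, 1486, 1248 and 1164 CPM fed and 1525, 1463, 1033 and 1053 CPM fasted, and atp-1 read 1661, 1470, 1182 and 1094 CPM fed and 1515, 1490, 989.2 and 973.9 CPM fasted. The fed age differences were -1.24 ± 0.13 and -1.19 ± 0.15 (SE). For atp-3, the subunit that confers oligomycin sensitivity, atp-4 and atp-5 the fed age differences were -0.68, -0.81 and -1.02. On fasting in the young atp-3 (-0.20) and atp-5 (-0.28) were called lower, the first with an edgeR adjusted p of 0.0445 that was lost with any 1 of 7 young libraries left out (all but fed 4), and atp-4 (-0.11) was not.

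The median fall was larger among members on X than among autosomal members. The 6 members on X are gas-1, sdha-1, ucr-2.1, ucr-2.2, asb-2 and asg-2. Their median log2 fold change on fasting in the young was -0.50, against -0.20 for the 31 autosomal members, -0.14 for all X genes tested and 0.06 for all autosomal genes. In the fed age comparison it was -1.53 against -0.94 for the autosomal members, and 0.05 and -0.02 for all X and autosomal genes. All X members but ucr-2.1 were called lower on fasting in the young, and these 5 were among the 9 whose response differed with age. In both tests calls lower were also more frequent among all X genes than among all autosomal genes. For the age difference of the response, 500 of all 2479 X genes were called lower and 317 higher. Among all 15276 autosomal genes 1745 were called lower and 2074 higher. On fasting in the young the lower quartile of the log2 fold change was -0.68 for all X genes and -0.315 for all autosomal genes. The median young minus day 8 response was -0.37 for X members and -0.17 for autosomal members. It was -0.10 for all X genes and 0.05 for all autosomal genes. How much of the 5 calls this X background accounts for was not tested. Genes on X are known to be largely silent in C. elegans germ cells.

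The split among day 8 libraries followed the same line. In both feeding states libraries 3 and 4 lay below libraries 1 and 2 for 27 members, all autosomal, and above them for 5, all on X, while sdha-1, cox-6C, nuo-3, cyc-2.1 and cyc-2.2 did neither. Over all genes 31.1% lay lower and 32.7% higher in both states; among all X genes 11.4% lay lower and 50.7% higher, and among all autosomal genes 34.3% and 29.8%. Leaving aside cyc-2.2 with its few counts, the largest split downward in fed animals was that of asb-1 (libraries 3 and 4 at 0.688 of libraries 1 and 2) and the largest upward that of ucr-2.1 (1.23 times). The summed level of 14 germline and oocyte markers moved with the split, at 13510 and 12140 CPM in day 8 fed libraries 1 and 2 against 8595 and 8094 in 3 and 4, and at 12240 and 12430 CPM against 7593 and 7430 in the fasted ones. The sums of other tissue markers moved the opposite way. In day 8 fed libraries 1 and 2 the muscle list held 1061 and 879.7 CPM against 1592 and 1339 in 3 and 4, the intestine list 175.7 and 156.5 against 249.2 and 235.3, the neuron list 362.1 and 349.4 against 424.1 and 425.6, and the hypodermis list 72.77 and 44.53 against 168 and 144.9 CPM. All 4 of these sums were also higher in libraries 3 and 4 of the fasted animals. The part of these cells in the split was not tested.

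**Figure D5:**
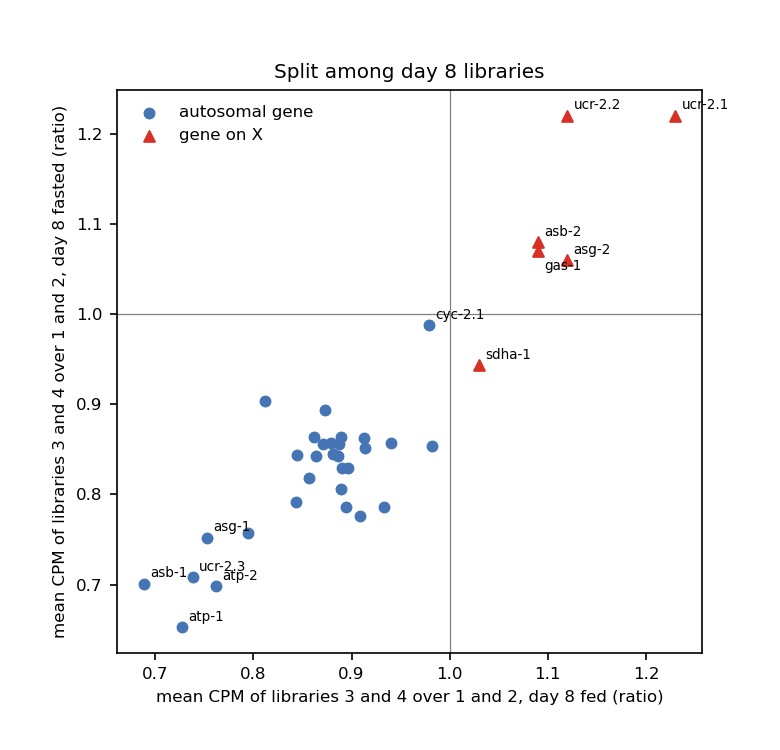
Ratio of mean CPM in day 8 libraries 3 and 4 to that in libraries 1 and 2, in fed (horizontal) and fasted (vertical) animals, for 36 genes; cyc-2.2, which has few counts at day 8, is left out. Of the 6 genes on X (triangles), 5 lie above 1 on both axes, and every autosomal gene lies below 1 on both.

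In young adults the same germline and oocyte list held 11280 to 11720 CPM fed and 7983 to 8125 CPM fasted, with 9 of 14 called lower on fasting and none higher. Of all genes 21.1% were called lower and 21.2% higher on fasting in the young. In fed animals 1 of the 14 was higher and 2 were lower at day 8, and on library totals alone 11 were higher and 1 lower. On that scale 52.7% of all genes were higher and 23.1% lower, against 30.8% and 34.7% with TMM scaling. The 6 intestine markers held 1117 to 1190 CPM fed and 422.3 to 437.6 fasted, with 3 called higher and 2 lower, and 11 muscle markers 12780 to 14020 CPM fed and 14940 to 16120 fasted, with 2 higher and 1 lower. At day 8 the fed sum was 879.7 to 1592 CPM for muscle, with 11 of 11 called lower, and 156.5 to 249.2 CPM for intestine, with 5 of 6 lower. The 9 neuron markers held 386.6 to 399.2 CPM in young fed and 349.4 to 425.6 in day 8 fed libraries, with 1 higher and 5 lower, or 3 higher and none lower on library totals alone. The 5 hypodermis markers held 2534 to 2738 and 44.53 to 168 CPM, with 3 higher and 1 lower, and the 4 early embryo markers 0.504 to 0.767 and 12.37 to 15.84 CPM, with 2 higher. In young adults 2 neuron markers rose on fasting, and no hypodermis or embryo marker was called. No marker of any list was at 0 in a group. The part of these tissues in the changes of the respiratory chain was not tested.

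The 5 genes whose log2 CPM followed asb-1 most closely over the 16 libraries were Y57A10A.27 (Pearson r = 0.995), ife-3 (0.994), T09A5.5 (0.993), sdha-2 (0.993) and glrx-3 (0.99). These libraries share their age and feeding groups and the day 8 sets, so the values describe likeness only. The gene sdha-2 is the autosomal paralogue of sdha-1, and it averaged 196 CPM in young fed, 166.8 in young fasted, 126.7 in day 8 fed and 126.5 CPM in day 8 fasted libraries.

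The rest of the chain was read from further lists. Over all genes 34.7% were called lower at day 8 in fed animals and 36.9% in fasted animals, and 21.1% fell on fasting in the young. On library totals alone these shares were 23.1%, 28.3% and 14.5%, and 30.6% of all genes rose on fasting in the young. All 12 subunits coded in mitochondrial DNA were lower at day 8 in fed animals (median log2 fold change -1.24), and 7 of 12 fell on fasting in the young, although their summed level varied more between libraries, from 5117 to 8714 CPM in young fed and 3967 to 4499 CPM in young fasted. At day 8 their median on fasting was 0.15 and none was called, where 0.37% of all genes were called. In fasted animals 8 of the 12 were lower at day 8, with a median of -0.56, and 6 on library totals alone. Of 19 further nuclear-coded subunits all were lower at day 8 in fed animals (median -0.77) and 10 fell on fasting in the young, led by ndub-3 (-0.54 ± 0.08 SE), T27E9.2 (-0.54) and hpo-18 (-0.53). On library totals alone the 12 were again all lower at day 8 and 5 of them fell on fasting in the young, while of the 19, 13 were lower at day 8, and 7 fell and 2 rose on fasting in the young. In fasted animals all 19 were lower at day 8 (median -0.59), and 16 on library totals alone.

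Lists beside the chain were less uniform. With TMM scaling 34.7% of all genes were called lower and 30.8% higher at day 8 in fed animals. These shares were 36.9% and 31.2% in fasted animals, and 21.1% and 21.2% on fasting in the young. Of 11 assembly factors 8 were lower and 1 higher at day 8 in fed animals, and on fasting in the young 4 were lower, with cox-17 at -0.65 and cox-18 at -0.47, and nuaf-1 was higher at 0.59. Of 8 genes of ubiquinone synthesis 4 were lower and 1 higher with age in fed animals, and coq-5 (-0.71), coq-1 (-0.53) and coq-8 (-0.51) fell on fasting in the young while 1 rose. Among 6 nucleotide carriers and ATPase inhibitors, ant-1.2 (3.43 ± 0.62 SE) and ant-1.3 (0.75) rose and mai-2 (-0.41) fell on fasting in the young, and in fed animals 5 were lower and 1 higher at day 8. Of 14 genes of the tricarboxylic acid cycle 13 were lower at day 8 in fed animals, and on fasting in the young 6 fell, led by suca-1 (-0.90) and sucl-1 (-0.79), subunits of succinyl-CoA ligase, and 2 rose. Of 7 genes of the mitochondrial unfolded protein response, hsp-60 (-1.22) and ubl-5 (-0.58) fell with 1 other on fasting in the young, dve-1 rose (0.57), and 4 of 7 were lower at day 8 in fed animals. Several of these directions flip on library totals alone, where with age in fed animals 52.7% of all genes were higher and 23.1% lower. On that scale 5 assembly factors were higher and 1 lower. Ubiquinone synthesis gave 5 and 2, and the unfolded protein response 5 and 1. On fasting in the young 30.6% of all genes were higher on that scale and 14.5% lower. The assembly factors then gave 5 higher and 4 lower, the tricarboxylic acid cycle 6 and 5, and the unfolded protein response 4 and 2. In fasted animals the age comparison gave 5 lower and none higher among the assembly factors (3 and 4 on library totals alone), 3 and none in ubiquinone synthesis (none and 4 on totals alone, 1 and 2 with RLE scaling), and 5 and none among the carriers and inhibitors. It gave 13 lower and none higher in the tricarboxylic acid cycle, and 2 and 2 in the unfolded protein response. Over all genes this comparison gave 28.3% lower and 44.6% higher on totals alone, and 34.6% and 35.6% with RLE scaling. None of the genes in these lists was called on fasting at day 8, where 0.37% of all genes were called.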

How the data were processed

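The deposited table gives expected counts per gene for 16 libraries (values that need not be whole), made by the authors on build WBcel235, per the submitters' processing notes, which also name DESeq. For the aligner and counter nothing is given in the sources used here. Of low values (up to 12), 94.6 to 96.6% lay within 6% of a whole number and 55.2 to 67.9% were even after rounding, for which halved counts were tried. RNA was extracted with Qiazol and RNeasy columns and libraries made with the Kapa mRNA HyperPrep kit, per the labels' protocols. Counts were rounded, genes filtered with filterByExpr and scaled by TMM, and all 16 libraries fitted together in edgeR 4.0.16 (R 4.3.3) by the quasi-likelihood test, with Benjamini-Hochberg adjustment over 17844 genes and calls at an adjusted p under 0.05. A standard error is the log2 fold change over the root of F. CPM use TMM-scaled totals. Gene symbols, exon lengths and chromosomes came from the Ensembl release 115 annotation of WBcel235. Exons of 7 members overlap a gene on the other strand and 3 one on the same strand, and strand use in counting is not given.

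Ratios of paralogues used counts plus 0.5 per exon length and a two-sided exact permutation test. Same-numbered day 8 libraries correlated in their deviations at 0.421, 0.55, 0.329 and 0.564. Among different-numbered libraries of the same set, fed 1 correlated with fasted 2 at 0.494 and fed 2 with fasted 1 at 0.359. The values were 0.666 for fed 3 with fasted 4 and 0.469 for fed 4 with fasted 3. The check therefore cannot tell pairing by number from the sets. Young pairs and pairs across ages did not correlate (young 0.04, 0.034, -0.005 and 0.024). No pair of replicates agreed within sampling noise. The members and lists were chosen with earlier results of these data known. Values in every library are given for paralogues and for up to 3 called members per complex with the largest change on fasting in the young or with age; of other lists, up to 3 genes with the smallest adjusted p. Alternatives were RLE scaling, totals alone, no filter, halved counts, DESeq2 1.42.0, blocks by replicate number, fits on the groups compared, and fits without single libraries or day 8 sets.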

Additional observations from a re-analysis of the deposited data

Results flagged for a closer look

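Among 148 groups of 4 libraries tested, 5 had 1 library far from the other 3, where chance gives about 1 in 20. They were young fed library 4 for lpd-5 (92.41 CPM), young fed library 4 for asb-2 (436.2 CPM), young fasted library 2 for asb-2 (338.3 CPM), young fasted library 1 for cox-6B (244.2 CPM) and day 8 fasted library 4 for cyc-2.2 (0.3102 CPM).

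The fasting response differed between ages by the edgeR interaction test for 9 genes. The young minus day 8 differences in log2 fold change were -0.736 for ucr-2.2, -0.524 for gas-1, -0.404 for asg-2, -0.367 for cox-6C, -0.365 for nuo-6, -0.362 for lpd-5, -0.343 for sdha-1, -0.336 for ucr-11 and -0.269 for asb-2. On library totals alone gas-1, asg-2, cox-6C, sdha-1, ucr-11 and asb-2 lost that call.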

How the results depend on the processing

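Counts of members called lower in the young fasting comparison went from 18 to 11 (4 higher) on totals alone, and to 31 with the replicate block within each age (1 higher), with the 2 groups alone (2), without day 8 libraries 3 and 4 (2) and without 1 and 2 (1); leaving out single libraries gave 15 to 25, and the replicate block over all libraries 23. At day 8 the count of 0 became 4 with the replicate block within each age and 17 without libraries 1 and 2, and stayed 0 with any single library left out. The age difference of the response went from 9 to 3 (8 higher) on totals alone, 22 (1 higher) with the replicate block within each age, 22 (1 higher) without day 8 libraries 3 and 4 and 17 (3 higher) without 1 and 2, and 7 to 14 with single libraries left out. The replicate block over all libraries gave 11, and 37 and 36 for the fed and fasted age differences, which ranged over 37 to 37 and 35 to 36 with single libraries left out. The 16 ratio calls became 0 with the replicate block and 0 without day 8 libraries 3 and 4, and 14 to 17 with single libraries left out. The pairing numbers of the young libraries are shared numbers only.

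Estimates that changed sign, each called in 1 of the fits compared and not in the other, did so on totals alone, except the last: isp-1 (0.147), cyc-1 (0.098) and atp-3 (0.008) on fasting in the young; sdhb-1 (0.196), mev-1 (0.203), cyc-1 (0.137), cox-4 (0.165) and atp-4 (0.179) in the age difference of the response; ucr-2.3 (0.123) and asg-1 (0.007) with age in fed animals; and mev-1 (0.144) in the age difference of the response without day 8 libraries 1 and 2. Totals alone move the median of all genes by construction of the scale; the cause of the other changes was not tested. RLE scaling moved the median of all genes in the fed age comparison to 0.101. Few counts limit cyc-2.2 at day 8.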
